A study of Mus musculus with 12 samples.

Results

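Klhdc2 and 7 genes that belong to the same kind of ubiquitin ligase were examined in CD8+ T cells from mouse tumors. The 8 genes were given by name (Klhdc1, Klhdc2, Klhdc3, Klhdc10, Cul2, Rbx1, Fem1b and Fem1c) among 52636 genes in the count table, and all 8 were among the 14173 genes that passed the filter on low counts. The list was chosen by a measured value, the rise of Klhdc2 in GFP+ against GFP- cells in these same libraries, so its difference between GFP+ and GFP- cells is described here without a test. The question put to the data was whether the other Kelch-type receptors or the shared parts of the ligase rose with it.

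CUL2 ligases attach ubiquitin to proteins and so mark them for degradation by the proteasome. The cullin CUL2 is the scaffold, RBX1 is the RING subunit that brings in the ubiquitin-carrying enzyme, and elongins B and C link the scaffold to interchangeable receptors that choose the substrate. The receptors KLHDC2, KLHDC3 and KLHDC10, with KLHDC1 acting through the related cullin CUL5, and FEM1B and FEM1C read short motifs at the very C-terminus of proteins, called C-degrons.

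The RNA came from CD8+ tumor-infiltrating T cells of A2AR eGFP reporter mice, which carry the BAC transgene Tg(Adora2a-EGFP)EP141Gsat on a C57BL/6 background, so that eGFP is driven by regulatory sequences of Adora2a, the gene of the adenosine receptor A2AR, in every group. The mice were female, 6 to 16 weeks old, and bore subcutaneous tumors of AT3ova, a mouse mammary carcinoma line that expresses ovalbumin. Cells were sorted at day 21 into GFP+ and GFP- fractions, from mice without treatment or mice given anti-PD-L1, an antibody that blocks the ligand of the checkpoint receptor PD-1, at days 14 and 18. Each of the 4 groups (non-treated GFP+, non-treated GFP-, anti-PD-L1 GFP+ and anti-PD-L1 GFP-) had 3 libraries by the sample labels, each pooled from 3 mice and coded KT13 to KT24, so the p-values measure the spread between pools and not between single mice. GFP reports activity of the transgene and not surface receptor.

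Library totals ran from 11292699 to 19023900 counts. The T cell marker genes were present in all 12 libraries, at 2610 to 4110 CPM summed over 5 genes (CPM is a gene's read count scaled to library size by edgeR's TMM method), and CD4 did not exceed 0.912 CPM. Adora2a was higher in GFP+ than in GFP- libraries by 1.53 on the log2 scale over both treatments (SE 0.138, edgeR adjusted p = 3.65e-04), which checks the GFP labels. Of the GFP+ libraries, KT13 from non-treated mice and KT21 from treated mice stood apart, with a median Spearman correlation across genes with the other libraries of 0.941 and 0.935 against 0.967 to 0.977 for the other 10. For a comparison of GFP+ with GFP- cells, the study gives fewer GFP+ libraries than its sample labels list. Here all of the listed ones were used. Values without KT13 and KT21 are given beside those of all 12 libraries, in the text or in the plot of differences with intervals.

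Klhdc2, whose product recognises proteins that end in a pair of glycines, was higher in GFP+ cells under both treatments. In non-treated mice its level was 61.7, 62.5 and 62.8 CPM in the GFP- libraries and 121, 93.2 and 95 CPM in the GFP+ libraries. After anti-PD-L1 it was 51.6, 48.5 and 43.5 CPM in GFP- libraries and 105, 126 and 86.4 CPM in GFP+ libraries. All 6 GFP+ libraries lay above all 6 GFP- libraries, and the 2 highest of them were KT21 and KT13. The counts behind these values were between 576 and 1663 reads per library. Of all genes tested, 6.19% had GFP+ libraries that all lay above the GFP- libraries in non-treated mice, 5.31% after anti-PD-L1 and 0.811% under both treatments. Klhdc2 had been chosen for this pattern, so nothing is read from its place among them.

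**Figure D1:**
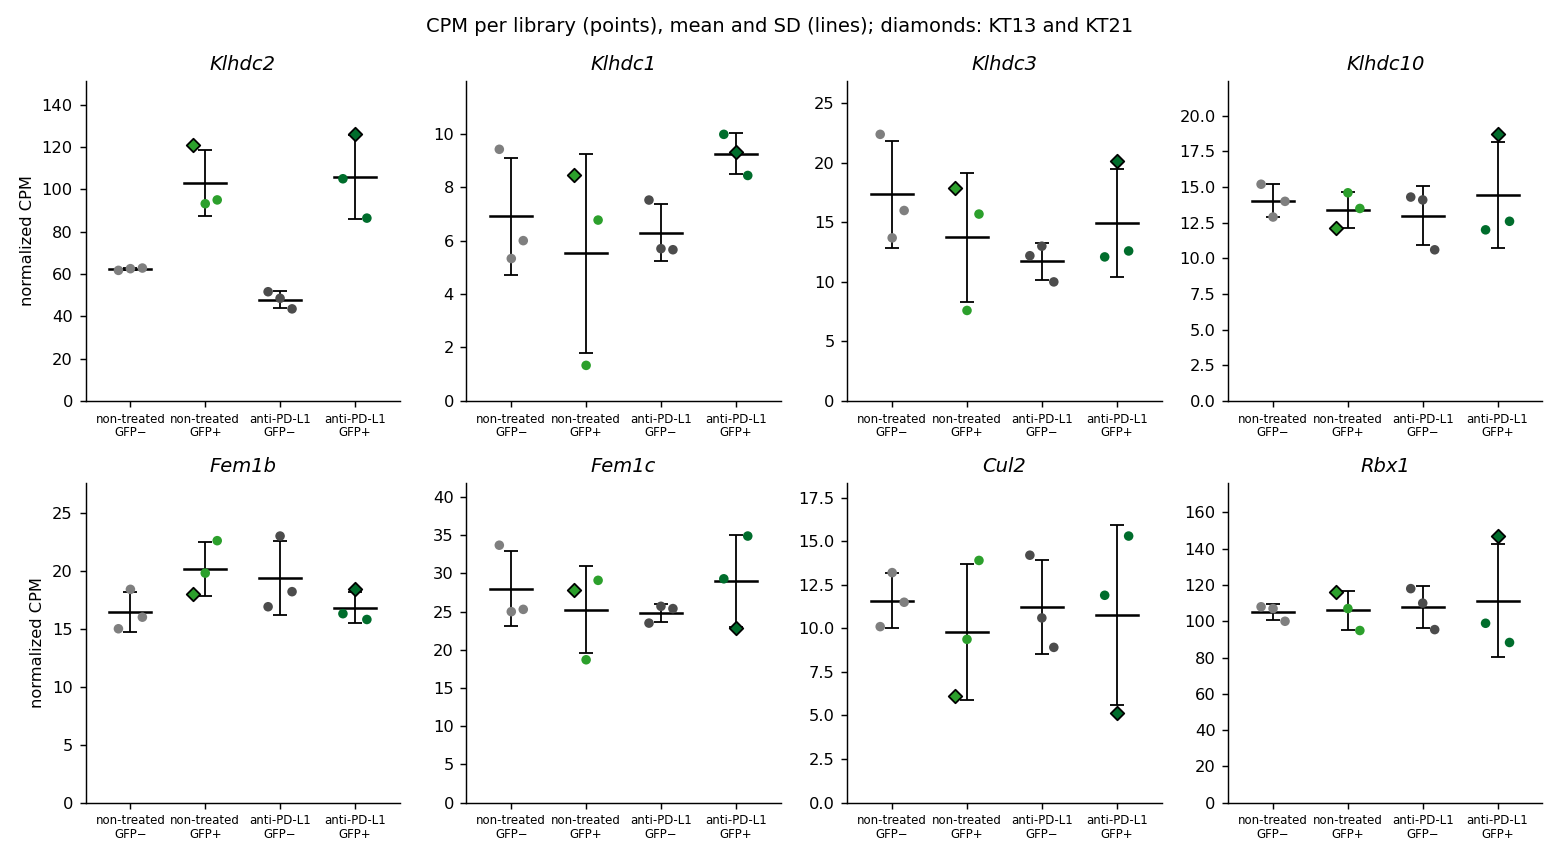
Normalized CPM of the 8 genes (y axes, each from 0) in the 4 groups (x axes). Points are libraries, diamonds are KT13 and KT21, and lines give the mean and SD of 3 libraries. Klhdc2 lies between 86.4 and 126 CPM in GFP+ libraries and between 43.5 and 62.8 CPM in GFP- libraries, and the GFP+ and GFP- points of the other genes overlap in at least 1 treatment.

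The mean level of Klhdc2 was 103 ± 15.6 CPM in non-treated GFP+ cells and 106 ± 19.9 CPM in GFP+ cells after anti-PD-L1 (SD, n = 3 each), and these groups overlapped. It was 62.3 ± 0.541 CPM in non-treated GFP- cells and 47.8 ± 4.08 CPM in GFP- cells after anti-PD-L1 (SD, n = 3 each), and these groups did not overlap. The order of the 4 groups was thus the pair of GFP+ groups, then GFP- cells of non-treated mice, then GFP- cells after anti-PD-L1. The fold difference between GFP+ and GFP- cells was 1.65 in non-treated mice (log2 0.73, SE 0.168) and 2.21 after anti-PD-L1 (log2 1.146, SE 0.17). Without KT13 and KT21 these became 1.51-fold (log2 0.59, SE 0.134) and 2.0-fold (log2 1.0, SE 0.135), and the GFP+ means fell to 94.1 ± 1.25 and 95.8 ± 13.3 CPM (SD, n = 2 each). The difference was thus smaller without the pair, with the same direction. In bulk RNA of sorted cells, a change in the share of cells that express a gene and a change in RNA per cell cannot be told apart.

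Of the natural killer cell markers, Klrb1c moved with GFP in the same libraries, and so did the sum over the list. The sum over Ncr1, Klrb1c and Eomes was 53.8 to 64.2 CPM in non-treated GFP-, 78.1 to 93.3 CPM in non-treated GFP+, 46.8 to 48.3 CPM in anti-PD-L1 GFP- and 73.2 to 90.5 CPM in anti-PD-L1 GFP+ libraries, so GFP+ and GFP- libraries did not overlap. All 3 genes were above 1 CPM in each group. Klrb1c was 15.1 to 31.4 CPM in non-treated GFP- and 45.6 to 51.0 CPM in non-treated GFP+ libraries, and 14.0 to 17.9 against 37.3 to 45.6 CPM after anti-PD-L1. Ncr1, a defining NK receptor gene, ranged from 1.24 to 6.71 CPM over the 12 libraries, overlapped by GFP in non-treated mice, and lay higher in GFP+ libraries after anti-PD-L1 (3.49 to 5.43 against 1.24 to 2.68 CPM). Eomes, at 26.2 to 39.5 CPM, overlapped by GFP in both treatments. The summed level of Cd8a and Cd8b1 was lower in non-treated GFP+ libraries (1140 to 1290 CPM) than in non-treated GFP- libraries (1720 to 1850 CPM), and overlapped between GFP+ (1600 to 2050 CPM) and GFP- (1940 to 2160 CPM) after anti-PD-L1. The sums of the 6 macrophage or monocyte markers, 60.0 to 193 CPM over all libraries, overlapped between GFP+ and GFP- in both treatments. Marker sums reached at most 1.03 CPM for B cells, 3.1 CPM for dendritic cells, 2.74 CPM for neutrophils, 31.9 CPM for tumor epithelium and 44.4 CPM for fibroblasts. The endothelial sum was 17.6 to 24.2 CPM in non-treated GFP+ and 12.7 to 15.3 CPM in non-treated GFP- libraries, and overlapped after anti-PD-L1. The part of these markers in the Klhdc2 difference was not tested.

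Of the 7 genes other than Klhdc2, 0 had GFP+ libraries that all lay above the GFP- libraries in non-treated mice, where 6.19% of all genes did, and 1, Klhdc1, had them after anti-PD-L1, where 5.31% did. By the quasi-likelihood test of edgeR, with p-values adjusted over all genes, 0 of the other 7 genes passed an adjusted p of 0.05 in non-treated mice, after anti-PD-L1 or over the mean of both treatments, where 0.00706%, 0.0282% and 0.31% of all genes passed. The unadjusted p was under 0.05 for 0 of the 7 in each of the 3 comparisons by edgeR, and DESeq2 also called 0 of 7 in each. Again 0 of 7 passed without KT13 and KT21, while the share of all genes called was 0.339%, 0.17% and 1.08%. With so few genes called anywhere, the count says little about the 7 genes, and the size of each difference with its interval is given instead.

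Over the mean of both treatments, the log2 differences of the 7 genes lay between -0.15 and 0.11 with a median of 0.04, beside a median of 0.00 over all genes tested (0.004 before rounding). The value for Klhdc2 was 0.94 (SE 0.119, 95% interval 0.68 to 1.19). The upper bounds of the 95% intervals of the 7 genes ran from 0.31 to 0.83. The highest bound was that of Klhdc1, the gene with the fewest reads. The interval of Klhdc2 is a description, since its difference was what chose the list, and it is no yardstick for the others. These intervals do not show that a gene stayed the same. They bound how far it may have moved. The plot of differences with intervals shows this for each treatment.

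**Figure D2:**
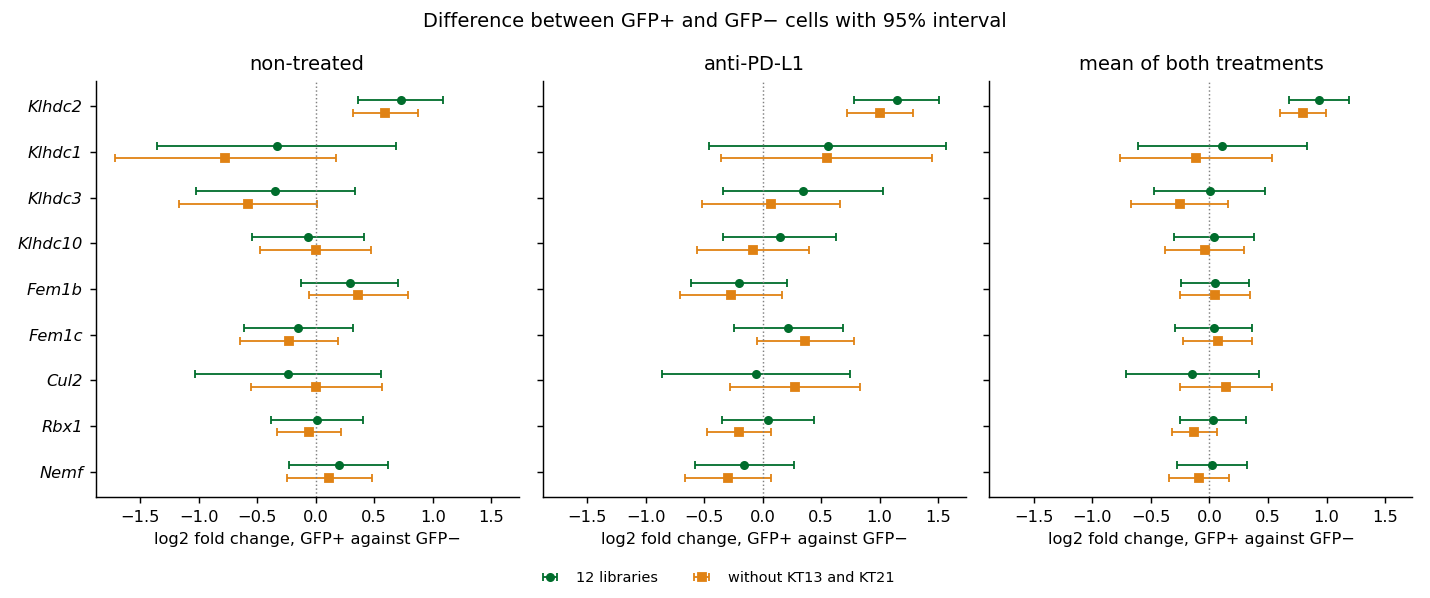
Log2 fold change of GFP+ against GFP- cells (x axes) for the 8 genes and the overlapping gene Nemf (y axis) in non-treated mice, after anti-PD-L1 and over the mean of both. Points are edgeR estimates and bars 95% intervals, circles for 12 libraries and squares without KT13 and KT21. Klhdc2 lies at 0.73, 1.146 and 0.94 with all 12 libraries, and the intervals of the other genes include 0.

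Klhdc1 is the nearest relative of Klhdc2 in kind, a Kelch receptor of glycine-ended proteins such as truncated selenoproteins, and lies beside it in the genome. Its level was 9.42, 5.33 and 6.0 CPM in non-treated GFP-, and 8.46, 1.33 and 6.77 CPM in non-treated GFP+ libraries. After anti-PD-L1 it was 7.52, 5.70 and 5.66 CPM in GFP- and 9.98, 9.33 and 8.44 CPM in GFP+ libraries. The groups overlapped in non-treated mice and did not overlap after anti-PD-L1, where GFP+ cells were higher. The low value of 1.33 CPM, in KT15, rested on 21 reads, and the largest count of the gene in any library was 166. The log2 difference between GFP+ and GFP- cells was -0.33 in non-treated mice (SE 0.475, edgeR adjusted p = 0.962) and 0.56 after anti-PD-L1 (SE 0.473, edgeR adjusted p = 0.993). The value in non-treated mice depended on single libraries. It changed sign without KT15, to 0.14 (SE 0.317), and was -0.77 without KT13 and KT21 (SE 0.455, edgeR adjusted p = 0.643), while that after anti-PD-L1 was 0.55 without the pair.

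Klhdc3, a Kelch receptor for other C-terminal motifs ending in glycine, did not separate by GFP. It measured 22.4, 13.7 and 16 CPM in non-treated GFP- libraries, and 17.9, 7.60 and 15.7 CPM in non-treated GFP+ libraries. After anti-PD-L1 it measured 12.2, 13.0 and 10.0 CPM in GFP- libraries, and 12.1, 20.2 and 12.6 CPM in GFP+ libraries. The lowest of the 12 values was again that of KT15, and the groups overlapped in both treatments. The GFP difference was -0.34 on the log2 scale in non-treated mice (SE 0.316, edgeR adjusted p = 0.912) and 0.35 after anti-PD-L1 (SE 0.318, edgeR adjusted p = 0.993). Over the other 10 libraries, leaving out KT13 and KT21, these were -0.58 (edgeR adjusted p = 0.553) and 0.07 (edgeR adjusted p = 1.0).

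Klhdc10 encodes a receptor that also takes up alanine-tailed fragments from stalled ribosomes. Its level stayed within 10.6 to 18.7 CPM over all 12 libraries, and the highest value belonged to KT21. Group means were 14.0 ± 1.16 CPM in non-treated GFP-, 13.4 ± 1.23 CPM in non-treated GFP+, 13.0 ± 2.07 CPM in anti-PD-L1 GFP- and 14.4 ± 3.67 CPM in GFP+ cells after anti-PD-L1 (SD, n = 3 each). All 4 groups overlapped. The mean difference by GFP was 0.04 on the log2 scale (SE 0.159, 95% interval -0.30 to 0.38, edgeR adjusted p = 0.968), and -0.04 without KT13 and KT21.

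The FEM1 receptors did not separate by GFP either. Fem1b, whose product recognises C-terminal arginine motifs and the folliculin partner FNIP1, had group means of 16.5 ± 1.75 CPM in non-treated GFP-, 20.1 ± 2.35 CPM in non-treated GFP+, 19.4 ± 3.25 CPM in anti-PD-L1 GFP- and 16.8 ± 1.34 CPM in GFP+ cells after anti-PD-L1 (SD, n = 3 each). GFP+ was the higher mean in non-treated mice and the lower after anti-PD-L1, with overlapping libraries in both. The log2 differences were 0.29 (SE 0.191, edgeR adjusted p = 0.893) and -0.20 (SE 0.192, edgeR adjusted p = 0.993). Fem1c, another receptor of C-terminal arginine, had means of 28 ± 4.95, 25.2 ± 5.71, 24.9 ± 1.19 and 29.0 ± 6.07 CPM in the same order of groups (SD, n = 3 each). Its differences ran the other way from those of Fem1b, -0.15 in non-treated mice (SE 0.217, edgeR adjusted p = 0.963) and 0.22 after anti-PD-L1 (SE 0.218, edgeR adjusted p = 0.993). Leaving out KT13 and KT21 gave 0.36 and -0.27 for Fem1b and -0.23 and 0.37 for Fem1c, in the same directions.

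Of the scaffold parts, Cul2 measured 10.1, 13.2 and 11.5 CPM in non-treated GFP- libraries and 6.14, 9.37 and 13.9 CPM in non-treated GFP+ libraries. After anti-PD-L1 it measured 14.2, 10.6 and 8.91 CPM in GFP- libraries and 11.9, 5.16 and 15.3 CPM in GFP+ libraries. The 2 lowest of the 12 values were those of KT13 and KT21, the libraries in which Klhdc2 was highest. The mean difference by GFP was -0.15 on the log2 scale with all libraries (SE 0.264, edgeR adjusted p = 0.913) and 0.14 without this pair (SE 0.19, edgeR adjusted p = 0.876), so its sign rested on them.

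Rbx1, the RING subunit shared by most cullin ligases, was measured at high depth, with 1193 to 2105 reads per library. Its group means were 105 ± 3.99 CPM in non-treated GFP-, 106 ± 10.4 CPM in non-treated GFP+, 108 ± 11.5 CPM in anti-PD-L1 GFP- and 111 ± 31.0 CPM in GFP+ cells after anti-PD-L1 (SD, n = 3 each). The wide spread of the last group came with the value of 147 CPM in KT21, beside 98.9 and 88.3 CPM in the other libraries of that group. The mean difference by GFP was 0.03 on the log2 scale (SE 0.13, 95% interval -0.25 to 0.31, edgeR adjusted p = 0.973), and -0.13 without KT13 and KT21 (SE 0.0928, edgeR adjusted p = 0.694).

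The effect of anti-PD-L1 was then compared within each fraction. In GFP+ cells, 0 of the 7 genes other than Klhdc2 passed an adjusted p of 0.05, where 0.0141% of all genes did. Klhdc2 differed by 0.04 on the log2 scale (SE 0.167, 95% interval -0.32 to 0.40). This is given without a test, because these libraries also served to pick Klhdc2. For the other 7 genes the differences ran from -0.26 for Fem1b to 0.75 for Klhdc1, with edgeR adjusted p between 0.866 and 1.0. In each of the 8 genes the treated and untreated GFP+ libraries overlapped, whereas 4.66% of all genes lay wholly higher and 5.67% wholly lower after treatment. Without KT13 and KT21, where 0.563% of all genes passed, the value for Klhdc1 was 1.19 (SE 0.492, unadjusted p = 0.0241, edgeR adjusted p = 0.479). That estimate rests on the 2 libraries KT15 and KT17 for non-treated cells, of which KT15 holds the count of 21, and leaving out KT15 alone from the 12 brought the value to 0.28.

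In GFP- cells, Klhdc2 and Klhdc3 were the genes whose anti-PD-L1 libraries all lay below the non-treated ones, where 6.26% of all genes had this order. Klhdc2 went from 62.3 to 47.8 CPM, a log2 difference of -0.38 (SE 0.168, 95% interval -0.74 to -0.02). The GFP- libraries of both treatments also belong to the comparison by which Klhdc2 was picked. Its difference is therefore given without a test, and nothing is read from its interval. Klhdc3 went from 17.4 ± 4.51 to 11.7 ± 1.54 CPM (SD, n = 3 each), a log2 difference of -0.57 (SE 0.317, edgeR adjusted p = 1.0). Klhdc3 did not pass, and 0 of the 7 genes other than Klhdc2 did. Other measures differed between the same libraries. The anti-PD-L1 GFP- libraries had 13413916 to 13760772 total counts and 60.5 to 88.2 CPM of macrophage or monocyte markers, against 16440398 to 19023900 counts and 110 to 162 CPM in non-treated GFP- libraries, and their part in the result was not tested. Over all genes 0% passed by edgeR, 487 had an unadjusted p under 0.05, and DESeq2 called 33 genes, 0 of the other 7 among them. KT13 and KT21 are GFP+ libraries and take no part in this comparison. Leaving them out changed the genes kept and the spread estimated over all groups, so the unchanged differences are no check. In that fit 0.373% of all genes passed, and the value for Klhdc2 was -0.38 (SE 0.123). That for Klhdc3 was -0.56 (SE 0.252, edgeR unadjusted p = 0.0358, edgeR adjusted p = 0.655). An unadjusted p under 0.05 was found for 7.22% of all genes in that fit.

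Whether the GFP difference changed with treatment was asked by an interaction term. For Klhdc2 the term was 0.42 on the log2 scale (SE 0.237), larger after anti-PD-L1, and is given without a test. The levels behind it were GFP+ means of 103 and 106 CPM beside GFP- means of 62.3 and 47.8 CPM. Of the other 7 genes, 0 passed by edgeR or by DESeq2 and 0 had an unadjusted p under 0.05 by either. Over all genes, 0% passed by edgeR, 295 had an unadjusted p under 0.05, and DESeq2 called 0. The terms ran from -0.49 for Fem1b (SE 0.271) to 0.89 for Klhdc1 (SE 0.671). Without KT13 and KT21, Klhdc1 (1.32), Fem1b (-0.63) and Fem1c (0.60) had an unadjusted p under 0.05, as 4.29% of all genes did, and the edgeR adjusted p was 1.0 for each.

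Klhdc2 (ENSMUSG00000020978) lies on the plus strand of mouse chromosome 12, at chr12:69296681-69310687 of GRCm38, the assembly that mm10 names. Klhdc1 (ENSMUSG00000051890, chr12:69241176-69284632) precedes it on the same strand and ends 12049 bases before it. Nemf (ENSMUSG00000020982, chr12:69310522-69357165) runs on the minus strand toward Klhdc2, and the genes share 166 bases at their 3′ ends, all exonic in both. NEMF adds the C-terminal tails on stalled ribosomes that KLHDC10 can recognise. QuantSeq takes its reads at 3′ ends, and the strand setting of the counting is not given in the sources used here, so reads from the shared stretch cannot be assigned beyond doubt.

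**Figure D3:**
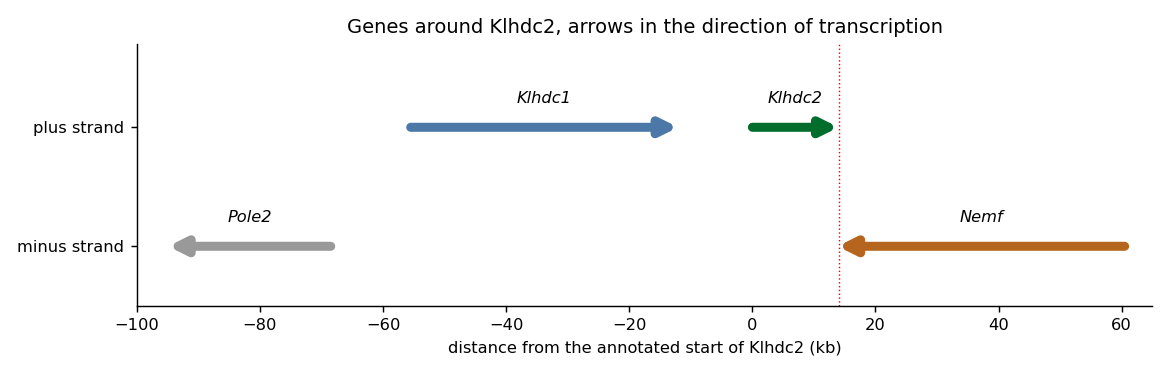
Klhdc1, Klhdc2, Nemf and Pole2 as arrows in the direction of transcription (x axis, kb from the annotated start of Klhdc2, y axis, strand). The dotted line marks the end of Klhdc2, where the last 166 bases of Klhdc2 and Nemf overlap.

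Nemf overlapped between GFP+ and GFP- libraries, which Klhdc2 did not. Its level was 57.8, 67.8 and 58.2 CPM in non-treated GFP- and 77.7, 71.5 and 61.4 CPM in non-treated GFP+ libraries. After anti-PD-L1 it was 83.2, 65.2 and 48.2 CPM in GFP- and 54.6, 69.6 and 52.3 CPM in GFP+ libraries. KT20, an anti-PD-L1 GFP- library, was the highest. The mean difference by GFP was 0.02 on the log2 scale (SE 0.14, 95% interval -0.28 to 0.32, edgeR adjusted p = 0.985). The ratio of Klhdc2 to Nemf reads was 0.921 to 1.08 in non-treated GFP-, 1.30 to 1.56 in non-treated GFP+, 0.62 to 0.903 in anti-PD-L1 GFP- and 1.65 to 1.93 in anti-PD-L1 GFP+ libraries. These ranges of GFP+ and GFP- libraries did not overlap. Klhdc2 was chosen for its difference by GFP, so nothing is read from the separation of the ratio. Pole2, the next gene beyond Klhdc1, differed by 0.06 over the mean of both treatments (SE 0.339, edgeR adjusted p = 0.977).

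The other genes lie elsewhere. Klhdc3 is at chr17:46674550-46680914 on the minus strand, Klhdc10 at chr6:30401868-30455179 on the plus strand, Rbx1 at chr15:81466296-81476369 on the plus strand and Fem1b at chr9:62791821-62811934 on the minus strand. Klhdc3 shares 2122 bases with Mea1 on the opposite strand, 276 of them exonic in both, and the same limit on strand holds there. Mea1 differed by 0.10 over the mean of both treatments (SE 0.109, edgeR adjusted p = 0.844). Klhdc1, Klhdc3 and Fem1b each also overlap a noncoding gene on the other strand (Gm15561, Gm26904 and Gm26609) with 0, 12 and 2 reads over all libraries.

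The stretch before the start of Klhdc2 is shown because Klhdc2 is the gene by which the list was chosen. RefSeq sequences of 6 of the 8 genes could be matched by symbol. The 250 bases that end at the base before the start, chr12:69296431-69296680 on the plus strand of GRCm38.p6, read as follows, with the letters CTTCCGG of the ETS core in capitals.
Klhdc2: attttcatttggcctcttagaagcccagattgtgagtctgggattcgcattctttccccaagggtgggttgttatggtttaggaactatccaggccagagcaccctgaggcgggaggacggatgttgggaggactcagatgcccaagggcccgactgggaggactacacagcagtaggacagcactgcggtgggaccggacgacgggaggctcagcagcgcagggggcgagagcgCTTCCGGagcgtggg
The ETS core, searched as CTTCCGG on both strands, begins 15 bases before the start of Klhdc2, and is also present before Klhdc3, among 6.91% of 32851 windows that hold it. The cAMP response element, TGACGTCA, was searched because A2AR signaling raises cAMP. It was in 0 of the 6 windows and in 1.55% of all windows, and its shorter form TGACG, which lies within it, was in that of Klhdc3 and in 17.8% of all windows. A match is a match of letters, and its absence says only that the letters are not in this window.

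**Figure D4:**
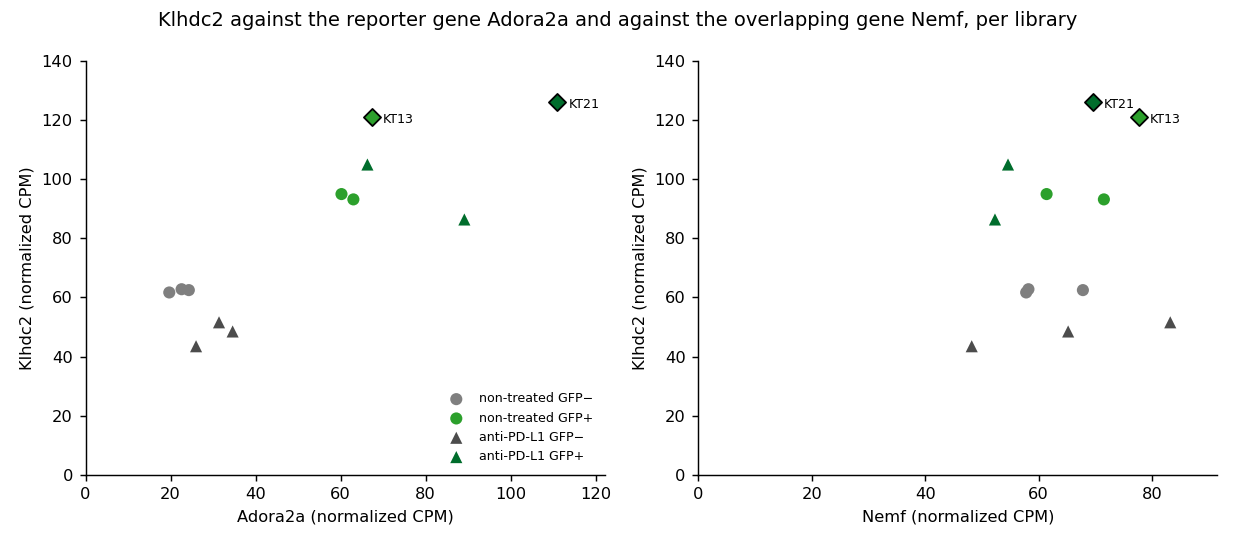
Normalized CPM of Klhdc2 (y axes) against Adora2a (left x axis) and Nemf (right x axis) in the 12 libraries. Circles are non-treated, triangles anti-PD-L1, green GFP+ and grey GFP-, and diamonds KT13 and KT21. GFP+ and GFP- libraries fall into separate clusters for Klhdc2 and Adora2a, and overlap for Nemf.

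Likeness to Klhdc2 was measured as Pearson's r of log2(CPM + 0.5) over the 12 libraries, as a description, since the libraries fall into GFP+ and GFP- clusters and share their normalization. The 5 genes with the highest r were Klra1 (0.972), Ikzf2 (0.951), Fcer1g (0.95), Arap3 (0.941) and Nmnat2 (0.94). Klra1 encodes a Ly49 receptor, Ikzf2 the transcription factor Helios, and Fcer1g the signaling chain of Fc receptors. The lowest r were those of B4galnt4 (-0.932) and Tgfbr3 (-0.926). Over the 10 libraries without KT13 and KT21 the 5 highest were Klra6 (0.967), Klra1 (0.962), Klra7 (0.961), Ikzf2 (0.952) and Klra3 (0.949), and the lowest were Spag17os (-0.947) and Adora3 (-0.936). Ly49 genes resemble each other closely in sequence, and how the counting treated reads with several matches is not given in the sources used here.

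Within fractions these values differed. For Klra1, r with Klhdc2 was 0.903 over the 6 GFP+ and 0.885 over the 6 GFP- libraries, for Ikzf2 0.517 and 0.916. Klra6 had an r of 0.958 within GFP- and -0.692 within GFP+ libraries. For Adora2a, r was 0.836 over 12 libraries but 0.357 within GFP+ and -0.657 within GFP- libraries, so the pooled value follows the difference between the fractions.

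None of the other 7 genes had a pooled r with Klhdc2 above that of Rbx1, 0.272 over 12 libraries. Klhdc10 had 0.266, Klhdc3 0.243, Klhdc1 0.124, Fem1c 0.03, Fem1b -0.01 and Cul2 -0.418. When KT13 and KT21 were left out, the values for Rbx1, Cul2, Klhdc3 and Klhdc1 changed sign, to -0.418, 0.325, -0.107 and -0.09. Within the 6 GFP+ libraries r was 0.863 for Rbx1, 0.69 for Klhdc3, 0.409 for Klhdc1 and 0.396 for Klhdc10. It was -0.05 for Fem1b, -0.247 for Fem1c and -0.898 for Cul2. KT13 and KT21 were the highest of these libraries for Klhdc2, Klhdc3 and Rbx1 and the lowest for Cul2. Within the 6 GFP- libraries r was 0.774 for Klhdc3, 0.594 for Klhdc10, 0.432 for Cul2 and 0.353 for Fem1c. It was 0.271 for Klhdc1, 0.158 for Rbx1 and -0.547 for Fem1b. In that fraction Klhdc2 and Klhdc3 both separated by treatment.

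The question was widened to 62 other genes of the pathway in 8 lists, of which 57 passed the filter. By edgeR, 0 of the 57 passed an adjusted p of 0.05 in each of the 6 comparisons, with all libraries and without KT13 and KT21. DESeq2 called 0 of 57 in each with all libraries, 1 gene being without an adjusted p in 1 comparison. At an unadjusted p under 0.05 edgeR gave 1 of 57 (1.75%) over the mean GFP difference, where 8.18% of all genes were at that level. The median log2 difference of the 57 genes by GFP was 0.001, beside 0.004 over all genes tested.

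**Figure D5:**
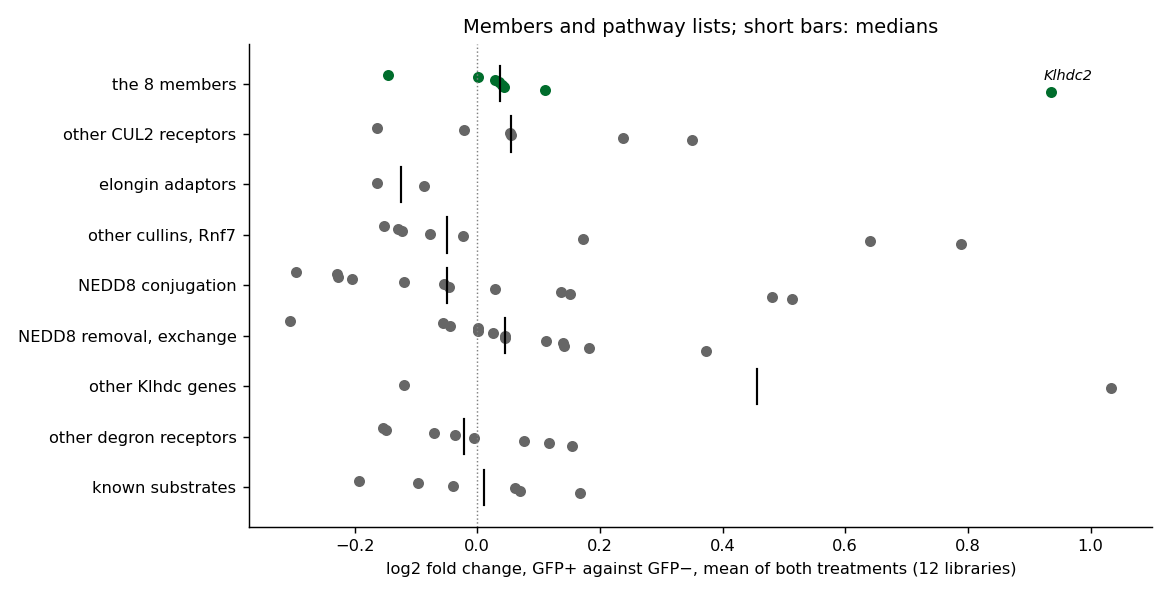
Log2 fold change of GFP+ against GFP- cells over the mean of both treatments (x axis, 12 libraries) for the 8 genes and the 57 tested genes of the 8 lists (y axis). Points are genes and short bars medians. Klhdc2 lies at 0.94, and the points of the lists run from -0.31 to 1.03, the largest being Klhdc8b, which did not pass the test and fell to 0.29 without KT13 and KT21.

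Among 6 other CUL2 receptors tested of 7 listed, 4 lay above and 2 below 0 by GFP, with a median of 0.05. Appbp2 differed by 0.24 (SE 0.138), Zer1, a reader of N-terminal glycine, by 0.35 (SE 0.225) and Vhl, the von Hippel-Lindau receptor of HIF, by -0.16 (SE 0.13). Without KT13 and KT21 these were 0.13, -0.02 and -0.11. Zer1 was 30 CPM in KT13 and 49.1 CPM in KT21, against 16 to 25.3 CPM in the other GFP+ libraries. The adaptors Eloc and Elob, the elongins that join receptors to CUL2, differed by -0.16 (SE 0.169) and -0.09 (SE 0.0998), and by 0.05 and -0.06 without the pair. The other Klhdc genes gave 2 tested of 6, and Klhdc8b, with 3 to 36 reads per library, had 1.03 (SE 0.688, edgeR adjusted p = 0.728), which fell to 0.29 without KT13 and KT21. Klhdc4 had -0.12 (SE 0.122), and -0.16 without them.

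Of 8 genes, the other cullins and the RING partner Rnf7, 3 lay above and 5 below 0, with a median of -0.05. Cul9, a large cytoplasmic cullin, differed by 0.64 over the mean of both treatments (SE 0.236, unadjusted p = 0.017, edgeR adjusted p = 0.491). Its level after anti-PD-L1 was 2.89, 1.85 and 2.11 CPM in GFP- and 4.38, 5.46 and 4.0 CPM in GFP+ libraries, and in non-treated mice 4.54, 3.50 and 3.98 CPM in GFP- and 4.90, 4.69 and 4.91 CPM in GFP+ libraries. GFP+ libraries lay above GFP- libraries in both treatments, as in 0.811% of all genes, on 26 to 80 reads per library. Cul9 was named for its small p by GFP, so nothing is read from this order. In GFP- cells Cul9 differed after anti-PD-L1 by -0.81 (SE 0.338, edgeR unadjusted p = 0.0316) and did not pass. That was 1 of 57 list genes (1.75%), where 3.44% of all genes had an unadjusted p under 0.05. Cul7 (0.79, SE 0.522) and Cul5 (-0.15, SE 0.128), the usual scaffold of KLHDC1, did not pass. Over the 10 libraries without KT13 and KT21, Cul9 had 0.57 (edgeR adjusted p = 0.561), Cul7 0.36 and Cul5 -0.07.

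NEDD8, a ubiquitin-like protein, switches cullins on when attached. Of its 12 conjugation genes 5 lay above and 7 below 0 by GFP (median -0.05), and of 13 genes for its removal and for receptor exchange 10 lay above and 3 below 0 (median 0.05). Arih1 (-0.20, SE 0.113), Ube2m (0.51, SE 0.294) and Cops3 (-0.31, SE 0.205) had the smallest unadjusted p values of these lists, each with an edgeR adjusted p of at least 0.668. When KT13 and KT21 were left out these became -0.13, -0.14 and -0.08, so that Ube2m changed sign. Ube2m was 65.7 CPM in KT13 and 57.7 CPM in KT21, against 19.9 to 24.0 CPM in the other GFP+ libraries. In GFP+ cells, Ube2f and Nae1, which encode a NEDD8-conjugating and a NEDD8-activating subunit, differed after anti-PD-L1 by 0.57 and 0.42 with unadjusted p of 0.0193 and 0.0254 (edgeR adjusted p = 0.602 and 0.643). These 2 of 57 genes were 3.51% of the lists, where 6.74% of all genes had an unadjusted p under 0.05 in that comparison. Without KT13 and KT21 both differences were 0.33, with unadjusted p of 0.146 and 0.0999.

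Among 8 other receptors of C-degrons or N-degrons the GFP differences ran from -0.15 to 0.15, with Ubr4 at 0.12 (SE 0.118), Fbxo31 at 0.15 (SE 0.165) and Dcaf12 at -0.15 (SE 0.163). The 6 listed substrate genes of KLHDC2, KLHDC3 or FEM1B ran from -0.19 to 0.17, with Usp1, a deubiquitinase that cuts itself to leave a glycine end, at 0.17 (SE 0.109), Selenok at -0.10 (SE 0.109) and Selenos at -0.19 (SE 0.245). Leaving out the pair moved Dcaf12 to 0.01, Ubr4 to 0.06, Fbxo31 to 0.17, Usp1 to 0.07, Selenok to -0.01 and Selenos to 0.10. RNA levels of a substrate gene do not measure its protein.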

How the data were processed

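QuantSeq 3′ RNA-sequencing libraries of sorted CD8+ T cells (12 in all, 3 per group) were analysed from the deposited table of raw counts per Ensembl gene. The authors trimmed reads with Cutadapt, aligned them to mm10 with HISAT2 and counted them with featureCounts. The submitters' processing notes name cutadapt 1.7 and Subread 1.6.4. The study's methods name other versions of Cutadapt and of the package that holds featureCounts, and which were used is not known. The strand setting, the treatment of reads with several matches and the annotation release are not given in the sources used here. Symbols from GENCODE vM21 matched 52489 of 52636 identifiers. Reads carry no molecular identifiers in the counts used.

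Counts were normalized by TMM and filtered by filterByExpr in edgeR 4.0.16 (R 4.3.3), leaving 14173 genes (14747 without KT13 and KT21). One quasi-likelihood fit over the 4 groups, without covariates, gave all comparisons, and p-values were adjusted by Benjamini-Hochberg over all genes with a threshold of 0.05. The scripts were tested on simulated data. Alternatives were DESeq2 1.42.0, other scaling and filters, fits of only the groups compared, each library left out and KT13 and KT21 left out together. The genes described, the pathway lists, the marker lists and the alternatives were chosen with earlier results of these data known. The text names the 8 genes, their neighbours and Adora2a as a check of labels. It also names the 5 genes most and 2 least like Klhdc2 by Pearson's r. From the lists it names genes that passed or had up to 3 of the smallest p by GFP. List genes with an edgeR unadjusted p under 0.05 by treatment, with all libraries, are named as well. Correlation used log2(CPM + 0.5).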

Additional observations from a re-analysis of the deposited data

How the results depend on the processing

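Over all alternatives, 0 of 822 tested values passed the threshold, and the number of genes called was 0 in each of the 6 comparisons under each setting tried. In the GFP comparisons and the interaction these counts cover the 7 genes other than Klhdc2. Klhdc2 was neither tested nor counted there, because it was chosen for its rise in GFP+ cells. The treatment comparisons cover all 8 genes. The 822 include treatment values of Klhdc2, which share libraries with the choice of that gene, so nothing is read from those. The GFP differences of Klhdc2 kept their direction in all 56 values under alternatives and ranged from 0.59 to 0.79 in non-treated mice, from 1.001 to 1.30 after anti-PD-L1 and from 0.80 to 1.02 over the mean of both on the log2 scale. These settings reuse the libraries by which Klhdc2 was chosen, so nothing is read from the kept direction. Differences that did not pass changed sign 65 times, 49 of them when 1 library was left out and 15 without KT13 and KT21, from sizes of up to 0.334.

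The number of genes called over the whole table, which stands behind the shares quoted, depended on the setting. It was 1 (0 to 78) and 4 (0 to 49) for GFP in non-treated and anti-PD-L1 mice, 44 (13 to 204) for the mean of both, 2 (0 to 123) and 0 (0 to 60) for anti-PD-L1 in GFP+ and GFP- cells, and 0 (0 to 10) for the interaction. The upper ends came with genes of at least 1 count in all libraries together kept. Leaving out 1 library gave 0 to 6, 0 to 7, 13 to 50, 0 to 34, 0 to 28 and 0 to 0. Over the 10 libraries, Klra1 and Ikzf2 were the 2 genes of the 5 most like Klhdc2 that remained.

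Klhdc1 had the fewest reads, 21 to 166 per library, and its mean GFP difference was bounded only between -0.61 and 0.83 on the log2 scale. Its SE in non-treated mice was 0.475 with KT15 and 0.317 without it. No paired analysis was possible because the labels pair no GFP+ library with a GFP- library and give no number shared between groups, and the order of the codes was not taken as a pairing. Intervals cover the spread between libraries only.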

Other observations

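In KT15, a non-treated GFP+ library, 3 of the 8 genes had their lowest level of the 12 libraries: Klhdc1 at 1.33, Klhdc3 at 7.60 and Fem1c at 18.7 CPM. Their next lowest values were 5.33, 10.0 and 22.8 CPM. In the same library Klhdc2 was at 93.2, Rbx1 at 107 and Cul2 at 9.37 CPM, and its total of 15659705 counts and its median Spearman correlation of 0.967 with the other libraries were within the range of the rest. Its mitochondrial share of 3.35% was the highest of the 12, against 2.51 to 3.05% in the others, as were its marker sums of 193 CPM for macrophages or monocytes and 44.4 CPM for fibroblasts. In KT21, Klhdc2, Klhdc10 and Rbx1 had their highest level of the 12 libraries, at 126, 18.7 and 147 CPM, and Cul2 its lowest, at 5.16 CPM.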
